A study of Mus musculus with 32 samples.

Results

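Total RNA of mouse late 2-cell embryos that had been kept in trichostatin A (TSA) was compared with total RNA of normal early 2-cell embryos, to ask in which genes the inhibited late embryos sat at the level of the earlier stage and in which they sat at neither stage. The libraries were chosen by their labels alone: 2 late 2-cell TSA and 2 early 2-cell DMSO libraries, 4 of the 32 samples of the series and of its 16 RNA libraries. TSA embryos were cultured in 50 nM TSA from 8 to 28 hours post fertilization (hpi). Early 2-cell embryos were controls of another experiment, cultured in the solvent DMSO from 4 to 20 hpi. Both came from wild-type B6D2F1/J females and males of 6 to 8 weeks by in vitro fertilization, and each library held whole embryos, of which the number was not given in the sources used here. Late 2-cell DMSO embryos of the TSA experiment (2 libraries, 8 to 28 hpi) served as the normal late stage. Zygote and late 2-cell DMSO libraries of the other experiment (2 each, 4 to 20 hpi) set gene lists and the size of a difference between experiments. Experiments are told apart here by inhibitor and hours of culture, and the labels do not say which libraries were made together. Nothing in the labels says that replicates were separate collections of embryos, so p-values measure the spread between libraries, which may be technical.

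Histone deacetylases (HDACs) take acetyl groups off histone tails and other proteins, and acetylated histones mark active promoters and enhancers. TSA blocks the zinc-dependent HDACs, whereas the sirtuins use NAD+ and are not its targets. After fertilization the mouse embryo lives on RNA stored in the oocyte, transcribes weakly in the zygote and early 2-cell embryo, and at the late 2-cell stage switches on much of the genome in major zygotic genome activation (ZGA), genes for making ribosomes and protein included, while maternal RNA is cleared.

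The TSA libraries held 18722215 and 19517993 expected counts, the early 2-cell DMSO libraries 21496069 and 21900799, and the late 2-cell DMSO libraries of the TSA experiment 26531532 and 24694571. An expected count is the number of reads RSEM assigned to a gene, and FPKM is that number scaled to gene length and to the library's mapped fragments. More genes reached 1 FPKM in the TSA libraries (15499 and 15670) than in the early (12233 and 12457) or late DMSO libraries (12968 and 13021). Of the counts, 19.9% and 21.2% fell on small and ribosomal RNA genes in the TSA libraries, against 13.9% and 13.7% in the early libraries and 16.2% and 16.1% in the late DMSO libraries. Mitochondrially encoded protein genes took 3.66% and 3.72% in the TSA libraries and 2.49% and 2.27% in the early libraries. FPKM values of a library do not sum to a fixed total, and the sums were 1721713 and 1940277 with TSA against 1284412 and 1268954 in early embryos. FPKM ratios ran above the fitted fold changes. Over 15339 genes the median log2 ratio of FPKM was 0.35, and the median fitted log2 fold change was 0.00. FPKM is scaled to each library's total, whereas the fit used edgeR's TMM scaling. Over genes that averaged 1 FPKM in either group, the median fitted value was 0.43 with scaling to total counts and 0.06 with TMM. The FPKM levels printed below are not on the TMM scale.

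Because stage, treatment and experiment all differ between the TSA and the early DMSO libraries, these cannot be told apart in that comparison alone. The same stage and solvent in both experiments, with DMSO given at different hours, gave a measure of a difference between experiments. Whether the early libraries were made with either late DMSO group is not given in the labels. Between the late 2-cell DMSO groups 273 of 20647 genes differed (1.32%), 245 of them higher in the TSA experiment and 28 lower. Of these, 188 were small and ribosomal RNA genes and 45 were protein-coding. Of the small and ribosomal RNA genes, 261 of 505 tested were higher in TSA than in early embryos and 0 were lower by edgeR (0 also at an unadjusted p under 0.05 and by DESeq2), and 181 of the 261 also differed between the late DMSO groups. The parts of stage, treatment and experiment in these genes cannot be told apart, and they are left out of the gene descriptions that follow.

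TSA and early 2-cell DMSO libraries were compared by edgeR's quasi-likelihood test on rounded expected counts, over 23001 genes. Calls of higher or lower needed a fold change of 2 or more, an adjusted p (Benjamini-Hochberg) under 0.05, and 1 FPKM or more on average in TSA or early embryos. At this rule 3991 genes (17.4%) were higher in the TSA embryos and 2156 (9.37%) were lower. A further 3968 genes (17.3%) lay within 2-fold, meaning that the whole 95% interval of the log2 fold change lay between -1 and 1. The other 5782 of the 15897 genes that reached 1 FPKM in either group were neither called nor within 2-fold, so that among those 15897 genes 25.1% were higher, 13.6% lower and 25% within 2-fold.

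The rises were larger than the falls. The median log2 fold change was 2.55 among higher genes and -1.43 among lower genes, and 1593 higher genes but 63 lower genes changed by at least 8-fold. Of the higher genes, 2253 (56.5%) were under 1 FPKM in early embryos, and 180 lower genes (8.35%) were under 1 FPKM with TSA. The groups overlapped in FPKM in 67 higher and 81 lower genes. The split of calls depended on the scaling: 64.9% of calls were higher with TMM (median log2 fold change of all genes 0.06), 82.4% with scaling to total counts (median 0.43), 50.1% with scaling to mitochondrial protein genes (median -0.20) and 64.3% with DESeq2 (median 0.05). Total RNA per embryo was not measured in these values, so a lower share of a gene and a larger amount of all other RNA cannot be told apart.

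For scale, the normal step from early to late 2-cell DMSO embryos gave 4077 higher (19.3%) and 2167 lower genes (10.3%) of 21141 tested. It shares the early libraries with the TSA comparison, so its values are set beside those of TSA embryos and no agreement is read from them. Within the TSA experiment, 3237 genes were higher (13.8%) and 3247 lower (13.9%) in TSA than in late DMSO embryos, of 23429 tested. In a joint fit of the 3 groups, 1999 of 24453 genes (8.17%) were above both stages and 415 (1.7%) were below both.

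To find where the TSA embryos kept the earlier level, genes were listed from libraries outside the comparison. Late-activated genes rose at least 4-fold from zygote to late 2-cell DMSO embryos of the other experiment, at an adjusted p under 0.01, and numbered 2629. Of these 2617 were tested and 2431 reached 1 FPKM in TSA or early embryos. In TSA embryos 995 were higher than in early embryos (40.9% of the 2431), 67 were lower (2.76%), 576 lay within 2-fold (23.7%) and 793 were neither. In late DMSO embryos 1672 were higher than in early embryos. The list's median log2 difference from early embryos was 0.86 with TSA (quartiles 0.21 and 1.74) and 1.87 in late DMSO embryos (quartiles 0.87 and 2.73), beside 0.06 over all genes. By level, its median member stood at 3.77 and 3.72 FPKM in the early libraries, 9.5 and 9.46 in the TSA libraries and 11.6 and 11.8 in the late DMSO libraries. In 378 members the TSA embryos were within 2-fold of early embryos and lower than late DMSO embryos, and in 269 they were higher than early embryos and within 2-fold of late DMSO embryos. The 378 are called at the early level below, a rule that allows shifts of under 2-fold.

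**Figure D1:**
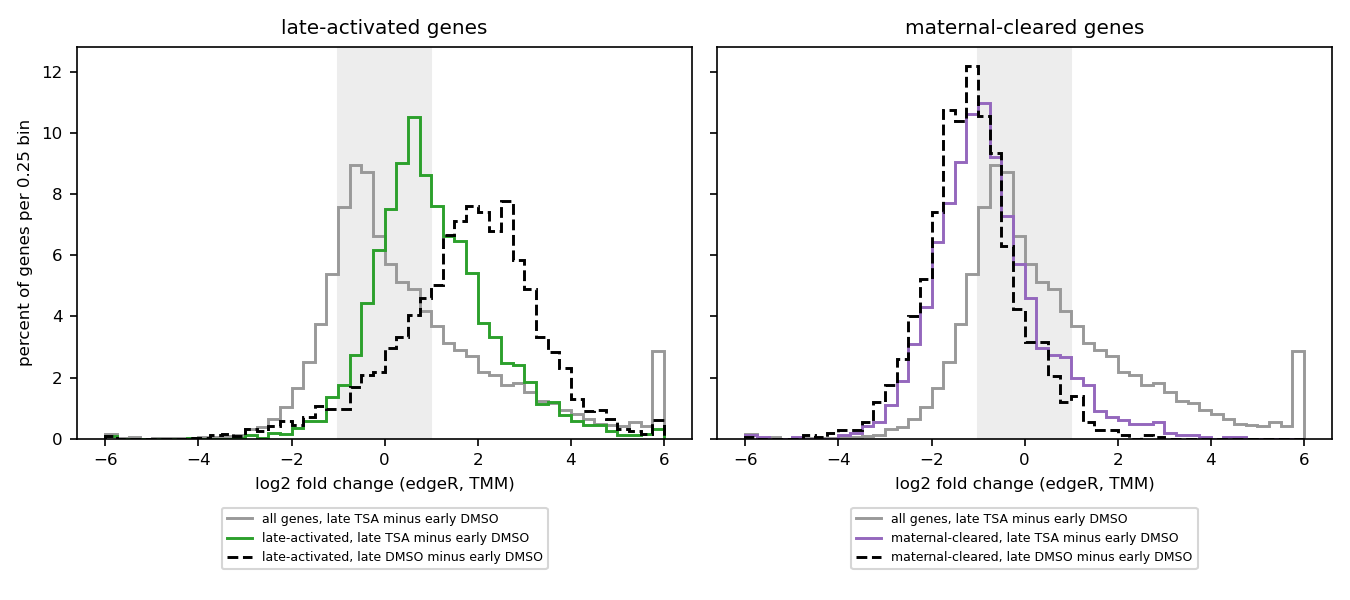
Distribution of log2 fold changes against early 2-cell DMSO embryos (x axis, edgeR with TMM; values beyond the ends are put in the end bins) as percent of genes in each bin (y axis), for late-activated genes on the left and maternal-cleared genes on the right; the grey band spans a 2-fold change either way. With TSA the late-activated genes centre at 0.86 and in late DMSO embryos at 1.87, whereas the maternal-cleared genes centre at -0.91 and -1.15.

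Set, Rpl41, Taf1d, Cul3 and Slc34a2 were the most abundant late-activated genes within 2-fold of early embryos and lower than late DMSO embryos. Set encodes a histone chaperone that shields histone tails from acetylation. It stood at 156 and 159 FPKM in the TSA libraries, 132 and 100.2 in the early libraries and 601 and 638 in the late DMSO libraries, so both TSA libraries were close above the early ones and far below the late ones. Its log2 fold change against early embryos was 0.10 (95% interval -0.19 to 0.40), and against late DMSO embryos it was -2.16 (edgeR adjusted p = 7.2e-09). Rpl41, a protein of the large ribosomal subunit, measured 155 and 129 FPKM with TSA, 105 and 83.8 in early and 598 and 609.7 in late DMSO embryos. Its log2 fold change against early embryos was 0.46 (95% interval 0.11 to 0.81). Cul3, the scaffold of a family of ubiquitin ligases, measured 157 and 156 FPKM with TSA, 85.5 and 59.3 in early and 455 and 417 in late DMSO embryos, at a log2 fold change of 0.52 (95% interval 0.16 to 0.88). Slc34a2, a sodium phosphate transporter (156 and 130.2 FPKM with TSA, 88.6 and 72 early, 422 and 416 late), and Taf1d, a subunit of the RNA polymerase I initiation factor (268 and 280.1 with TSA, 179.8 and 159.8 early, 428 and 459 late), had the same order. In these 5 genes no TSA library overlapped a library of either DMSO stage, and each lay within 2-fold of early embryos by the fit. The 95% intervals of Slc34a2 (0.30 to 0.77) and Taf1d (0.16 to 0.53) also lay above 0. All but Set thus stood above early embryos, between the stages.

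The promoters of Set and Rpl41 are shown because they bear on the open chromatin described at the end. Set (ENSMUSG00000054766.13) lies on the plus strand at chr2:30057378-30072577 and Rpl41 (ENSMUSG00000093674.7) on the minus strand at chr10:128548114-128549305 of GRCm38. Each sequence runs 5′ to 3′ from 250 bases before to 50 bases after the start site in RefSeq (GRCm38.p6), at chr2:30061746-30062045 for Set and chr10:128549119-128549418 for Rpl41, and capitals mark CpG dinucleotides, 17 in Set and 16 in Rpl41. The RefSeq start of Set lies inside the gene's annotated span.
Set: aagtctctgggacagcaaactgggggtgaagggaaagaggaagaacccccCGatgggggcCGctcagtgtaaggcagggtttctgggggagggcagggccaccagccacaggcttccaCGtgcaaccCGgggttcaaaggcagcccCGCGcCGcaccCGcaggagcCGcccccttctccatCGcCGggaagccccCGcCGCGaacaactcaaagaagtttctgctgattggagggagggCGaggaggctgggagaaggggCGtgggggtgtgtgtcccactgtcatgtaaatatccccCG
Rpl41: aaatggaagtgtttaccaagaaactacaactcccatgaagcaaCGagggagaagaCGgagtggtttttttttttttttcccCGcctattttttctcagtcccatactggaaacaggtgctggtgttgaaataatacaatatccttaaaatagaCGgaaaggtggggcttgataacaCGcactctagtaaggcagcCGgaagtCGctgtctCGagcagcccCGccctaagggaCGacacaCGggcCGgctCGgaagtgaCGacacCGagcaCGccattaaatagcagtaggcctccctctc

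Other late-activated genes were higher than in early embryos and within 2-fold of the late level. The most abundant were Gm5590, a transcribed pseudogene (379.8 and 384 FPKM with TSA, 81.4 and 105 early, 329 and 335 late), the non-coding transcripts Gm47808 and AC136710.2, and Rps12, a protein of the small ribosomal subunit. Rps12 measured 184 and 187 FPKM with TSA, 86.7 and 72.2 in early and 227 and 240.3 in late DMSO embryos. Its log2 fold change against early embryos was 1.04 ± 0.14 (SE, n = 2 libraries a group, edgeR adjusted p = 0.00042), and fell under 2-fold without early replicate 2 (log2 0.90) and with mitochondrial scaling (0.78). AC136710.2 did likewise, at 0.98 and 0.89. Gm47808 was at 342 and 301 FPKM with TSA, 108 and 88.8 in early and 152 and 174 in late DMSO embryos. AC136710.2 was at 252 and 222 FPKM with TSA, 94.3 and 73.7 in early and 103 and 124 in late DMSO embryos. Both stood above late DMSO embryos, although within 2-fold of them by the fit. Their normal step from early to late DMSO embryos was under 2-fold, at log2 0.78 and 0.49.

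Genes for making ribosomes were close to the early level as a group. Ribosome biogenesis factors, which build and export ribosomal subunits, had a median of 14.2 and 12.1 FPKM in the TSA libraries, 9.5 and 8.92 in the early libraries and 45.5 and 44.9 in the late DMSO libraries. Of 99 factors, 15 were higher than in early embryos with TSA, 7 were lower and 48 lay within 2-fold, with a median log2 fold change of 0.14. Over all genes at 1 FPKM the shares were 25.1%, 13.6% and 25%. In late DMSO embryos 93 of the 99 were higher than in early embryos and the median was 2.40. Cytoplasmic ribosomal protein genes gave the like numbers: of 85 genes 13 were higher with TSA, 6 lower and 36 within 2-fold (median 0.03), and in late DMSO embryos 80 were higher (median 2.25). Their median level was 36.1 and 34.3 FPKM with TSA, 28.1 and 24.9 in early and 113 and 114 in late DMSO embryos. Of the members within 2-fold of early embryos, 47 factors and 35 ribosomal protein genes were lower than in late DMSO embryos. The direction of the small shift against early embryos depended on the scaling. With mitochondrial scaling the medians were -0.13 and -0.23, with 16 and 16 lower members, and with total counts they were 0.51 and 0.40, with 27 and 20 higher members. Because ribosomal protein genes have many processed pseudogenes, RSEM may divide their reads, and single genes are uncertain.

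Single members did not move together. Ncl, nucleolin, a major nucleolar protein, lay within 2-fold of early embryos at 206 and 200.2 FPKM with TSA, 120.0 and 122 early and 307 and 336 late. Npm1, nucleophosmin, its neighbour in the nucleolus, was at 282 and 257 FPKM with TSA against 501 and 483 early and 525 and 545 late, below both stages (log2 -1.22 ± 0.07 against early embryos, SE, n = 2, edgeR adjusted p = 2.9e-06). Nop56, a core protein of box C/D ribonucleoproteins, had risen partway, to 98.1 and 101 FPKM from 23.9 and 36.2, against 162 and 168 in late DMSO embryos. Bop1, which processes the large subunit's RNA, was also between the stages, at 10.8 and 10.6 FPKM with TSA, 1.01 and 0.68 early and 23.9 and 20.7 late. Tsr2, a chaperone of a ribosomal protein, was at 5.92 and 6.87 FPKM with TSA and 5.67 and 5.4 late, from 0.33 and 0.45 early. Rpl5, one of the ribosomal proteins of the 5S particle, was at 241 and 330.1 FPKM with TSA, 42 and 50.7 in early embryos and 276 and 372 in late DMSO embryos of the TSA experiment. It was at 80.2 and 54.4 FPKM in the other late DMSO group, which was cultured at the same hours as the early embryos. The late DMSO groups thus differed in Rpl5, and whether the early libraries were made with either is not given. Rps27 was the exception on the other side, at 2.81 and 2.8 FPKM with TSA, below 22.3 and 5.25 early and 133 and 134 late, but its fall from early embryos (log2 -2.27, edgeR adjusted p = 0.034) was lost without TSA replicate 1 (adjusted p = 0.13), TSA replicate 2 (0.14) or early replicate 1 (0.28).

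**Figure D2:**
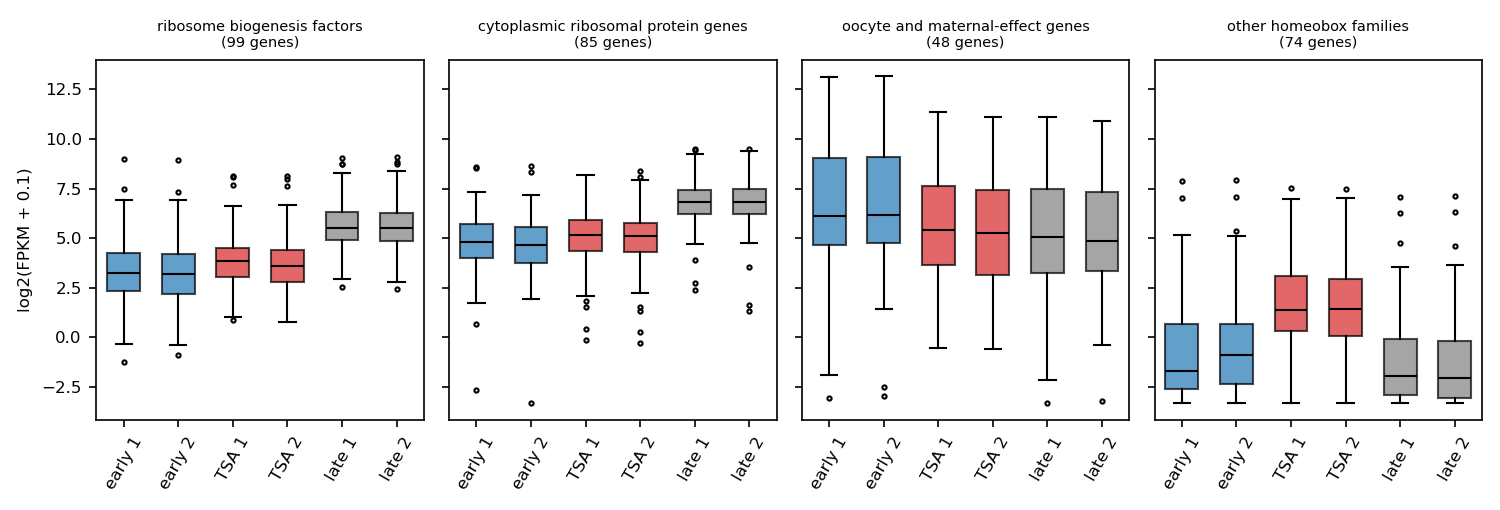
Levels of the members of 4 gene lists in each library, as log2(FPKM + 0.1), in early 2-cell DMSO (blue), late 2-cell TSA (red) and late 2-cell DMSO embryos (grey); boxes span the quartiles, lines the medians, whiskers 1.5 times the box, and points the members beyond. Ribosome biogenesis and ribosomal protein genes with TSA sit by the early libraries, oocyte genes by the late libraries, and homeobox genes above both.

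Other housekeeping lists were more mixed, beside 25.1% higher, 13.6% lower and 25% within 2-fold among all genes at 1 FPKM. Of 63 translation factors at 1 FPKM (65 in the list), 10 were higher than in early embryos with TSA, 18 lower and 24 within 2-fold. Eef1a1, the elongation factor that brings tRNA to the ribosome, was at 135 and 152 FPKM against 307 and 309 early and 249.9 and 235 late, below both stages. Gspt1, the translation termination factor eRF3a, fell further, to 7.35 and 7.94 FPKM from 34.1 and 29.5 (log2 -2.42 ± 0.14, SE, n = 2, edgeR adjusted p = 3.4e-06), and was also below late DMSO embryos (31.8 and 25.5). Eif4e1b, an oocyte cap-binding protein, was lower than in early embryos at 282 and 295 FPKM against 597 and 556, and was within 2-fold of late DMSO embryos. Eif2ak2, the kinase PKR, which senses double-stranded RNA, rose to 1.63 and 1.26 FPKM from 0.07 and 0.06 and was above both stages.

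Of 89 spliceosome and splicing genes at 1 FPKM (90 in the list), 6 were higher, 22 lower and 46 within 2-fold of early embryos (median log2 -0.38). Sf3b3, a subunit of the SF3b complex, was lower at 6.15 and 6.12 FPKM against 24.2 and 25.6, and Snrnp27 at 34.6 and 30.4 against 135 and 143. Of 45 proteasome genes at 1 FPKM (49 in the list), 6 were higher, 11 lower and 16 within 2-fold. Psmd4, the ubiquitin receptor of the proteasome cap, was below both stages (53.4 and 46.6 FPKM, against 142 and 133 early and 128 and 107 late), whereas Psme2, a subunit of the interferon-linked activator, was higher than in early embryos (17.8 and 15.9 FPKM against 1.16 and 1.47). Of 37 chaperones, 3 were higher, 7 lower and 22 within 2-fold. Hspa5, the chaperone BiP of the endoplasmic reticulum, had risen to the late level, at 207 and 199 FPKM with TSA, 29.6 and 42.2 early and 146 and 152 late. Hspa1a, the stress-inducible Hsp70, was above both stages, at 42 and 32.5 FPKM against 8.77 and 10.9 early and 8.42 and 9.36 late. Of 74 nuclear-encoded respiratory chain genes at 1 FPKM (75 in the list), 9 were higher, 14 lower and 9 within 2-fold, and the remaining 42 were undecided. The balance of calls turned with the scaling: with total counts 14 translation factors were higher and 10 lower, 11 and 6 proteasome genes, and 18 and 6 respiratory chain genes, whereas with mitochondrial scaling 6 and 25, 2 and 12, and 7 and 20 were. Of the chaperones, 6 were higher and 3 lower with total counts, and 3 and 10 with mitochondrial scaling.

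Maternal-cleared genes, at least 4-fold lower in late 2-cell DMSO embryos than in zygotes of the other experiment, numbered 1836, of which 1829 were tested and 1648 reached 1 FPKM. In TSA embryos 664 of the 1648 were lower than in early embryos (40.3%), 106 higher (6.43%), 209 within 2-fold (12.7%) and 669 neither. In late DMSO embryos 823 were lower. The median log2 difference from early embryos was -0.91 with TSA (quartiles -1.54 and -0.17) and -1.15 in late DMSO embryos (quartiles -1.73 and -0.56). Of the 664 lower genes, 333 lay within 2-fold of late DMSO embryos. In 66 maternal-cleared genes the TSA embryos were within 2-fold of early embryos and higher than late DMSO embryos, and in 12 within 2-fold and lower. The 209 genes within 2-fold became 127 without TSA replicate 1.

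Among protein-coding genes at 10 FPKM or more with a named symbol, the 6 lowest fold changes were all in maternal-cleared genes. Psenen, a subunit of γ-secretase, was at 20.0 and 20.6 FPKM with TSA, 168 and 158 in early and 13 and 13.4 in late DMSO embryos, a log2 fold change of -3.30 ± 0.13 (SE, n = 2, edgeR adjusted p = 7.4e-07). Obox1, an oocyte-specific homeobox gene, was at 108 and 74.6 FPKM against 666 and 704 early, and Nlrp4f, an oocyte NLR gene, at 96.1 and 62 against 564 and 614. Both Obox1 and Nlrp4f belong to families of close copies, between which reads can be divided. Vta1, of the endosomal sorting machinery (16.4 and 12.9 FPKM against 86.9 and 100.3), Gnpda2, an enzyme of amino sugar breakdown (6.44 and 7.87 against 53.5 and 48.1), and Dph6, which modifies elongation factor 2 (18.9 and 16.9 against 124 and 138), fell by 3.21, 3.19 and 3.17 on the log2 scale. In each of these 6 genes the TSA libraries were within 2-fold of late DMSO embryos by the fit, and no TSA library overlapped an early one.

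Of 47 oocyte and maternal-effect genes at 1 FPKM (48 in the list), 25 were lower than in early embryos with TSA, 1 was higher and 7 lay within 2-fold (median log2 -1.03). Over all genes at 1 FPKM the shares were 13.6%, 25.1% and 25%. In late DMSO embryos 22 of the list were lower (median -0.90). Zbed3, a partner of the subcortical maternal complex, fell to 2312 and 2126 FPKM from 8854 and 9134, and stood at 1589.8 and 1606 in late DMSO embryos. Btg4, the adaptor that links the translation machinery to deadenylation of maternal RNA, fell to 1137 and 1046 from 2572 and 2526. Rfpl4, an oocyte RING-finger-like gene, was at 204 and 166 FPKM against 1152 and 1209.5. Omt2b stayed within 2-fold at 2648 and 2178 against 2364 and 2641 FPKM. Sohlh1, a germ cell transcription factor, was the 1 that rose, to 2.31 and 3.32 FPKM from 0.17 and 0.08.

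A few maternal-cleared genes stayed within 2-fold of the early level. Gbx2, a homeobox gene, was at 53.9 and 52.6 FPKM with TSA, 43 and 54.1 in early and 12.1 and 15.6 in late DMSO embryos, with a log2 fold change against early embryos of -0.14 (95% interval -0.42 to 0.14) and overlapping groups. Nfil3, a repressor of the bZIP class (37.2 and 34.8 with TSA, 35.3 and 48 early, 15.7 and 11.7 late), and Fam133b (89.3 and 76.2, 82.3 and 98.4, 30.2 and 34.2) followed that order. Hsp90aa1, a cytosolic chaperone, and Tacc3, a spindle protein, met the same rule from the other side, since both stood higher in late DMSO embryos than with TSA: Hsp90aa1 was at 198 and 209 FPKM with TSA, 192 and 218 early and 356 and 366 late. Tacc3 was at 75.4 and 60.8 with TSA, 50.0 and 41.9 early and 111 and 114 late.

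**Figure D3:**
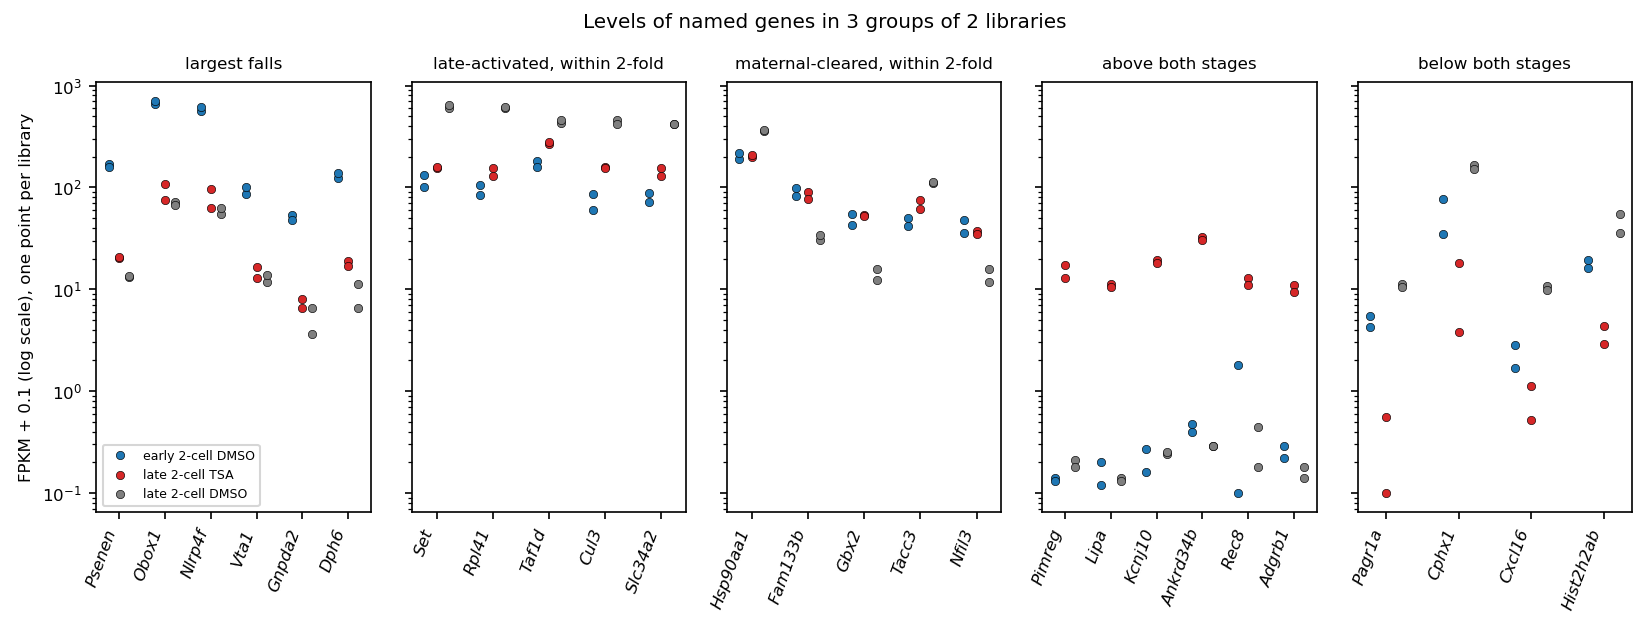
FPKM + 0.1 on a log axis of the genes with the largest falls, the most abundant late-activated and maternal-cleared genes within 2-fold of early embryos, and the leading genes above and below both stages; each point is 1 library of early 2-cell DMSO (blue), late 2-cell TSA (red) or late 2-cell DMSO embryos (grey). The TSA points of Psenen at 20.0 and 20.6 sit near the late ones, those of Set at 156 and 159 near the early ones, and those of Kcnj10 at 19.3 and 18.2 above both.

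Genes of the 2-cell burst, which are active in 2-cell embryos and then silenced, split. Of 28 genes 1 was higher than in early embryos with TSA, 7 were lower and 14 lay within 2-fold (median log2 0.03). Over all genes at 1 FPKM the shares were 25.1%, 13.6% and 25%. In late DMSO embryos 5 of the 28 were higher and 13 lower (median -0.83). Zscan4f, of a telomere-linked family of zinc-finger genes, was at 152 and 102 FPKM with TSA, 231 and 196 in early and 41.8 and 40.5 in late DMSO embryos, between the stages. Zscan4d was lower than in early embryos, at 27.1 and 21.1 against 76.1 and 63.7 FPKM. Obox5, at 324 and 262 FPKM against 1595 and 1535, had fallen to within 2-fold of the late DMSO libraries (229 and 209). Zscan4 genes form 1 family of close copies and Obox genes another, so single members are uncertain. Of 546 genes at 1 FPKM that the study had listed as early 2-cell minor ZGA genes (558 in the list), 172 were higher with TSA, 27 lower and 204 within 2-fold of early embryos; the list was chosen by the study with early 2-cell embryos and is not independent evidence.

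In 1999 genes the TSA embryos lay above both stages, of which 1748 were protein-coding and 9 differed between the late DMSO groups of the experiments. Their median level was 5.34 FPKM with TSA, 0.5 in early and 0.45 in late DMSO embryos, at median log2 fold changes of 3.13 and 3.17 against the stages. Of these genes 1186 were under 1 FPKM at both DMSO stages and 594 reached 10 FPKM with TSA. Most were thus silent or nearly so in normal 2-cell embryos and had low to moderate levels with TSA.

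Among named protein-coding genes at 10 FPKM or more, ranked by the smaller of their differences from the stages, the first 6 were Pimreg, Lipa, Kcnj10, Ankrd34b, Rec8 and Adgrb1. Kcnj10, a potassium channel of glial cells, was at 19.3 and 18.2 FPKM with TSA, 0.06 and 0.17 in early and 0.14 and 0.15 in late DMSO embryos. Its log2 fold change was 6.98 ± 0.29 against early embryos (SE, n = 2, edgeR adjusted p = 8.6e-07) and 6.61 against late DMSO embryos. Lipa, lysosomal acid lipase, was at 11.2 and 10.3 FPKM against 0.1 and 0.02 early and 0.04 and 0.03 late. Ankrd34b was the most abundant of the 6, at 32.2 and 30.4 FPKM against 0.38 and 0.3 early and 0.19 and 0.19 late. Rec8, the cohesin subunit of meiosis, was at 12.8 and 11 FPKM, against 0 and 1.7 early and 0.34 and 0.08 late, and Adgrb1, a brain adhesion receptor, at 10.9 and 9.36 against 0.12 and 0.19. Pimreg, a mitotic protein, had 12.7 and 17.2 FPKM against 0.04 and 0.03, and its count ratio to early embryos was 331 (95% counting interval 91.4 to 2742). Counting intervals, here and below, pool the reads of a group's libraries. They leave out the spread between libraries and are therefore too narrow for a comparison of groups.

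The promoters of Kcnj10 and Lipa are shown because both genes lay far above both stages while their promoters differ in CpG content and open chromatin. Kcnj10 (ENSMUSG00000044708.5) lies on the plus strand at chr1:172341210-172374085 and Lipa (ENSMUSG00000024781.16) on the minus strand at chr19:34492318-34527474 of GRCm38. Capitals mark CpG, 21 in Kcnj10 and 7 in Lipa, in the RefSeq windows (GRCm38.p6) chr1:172340960-172341259 and chr19:34527425-34527724, 5′ to 3′.
Kcnj10: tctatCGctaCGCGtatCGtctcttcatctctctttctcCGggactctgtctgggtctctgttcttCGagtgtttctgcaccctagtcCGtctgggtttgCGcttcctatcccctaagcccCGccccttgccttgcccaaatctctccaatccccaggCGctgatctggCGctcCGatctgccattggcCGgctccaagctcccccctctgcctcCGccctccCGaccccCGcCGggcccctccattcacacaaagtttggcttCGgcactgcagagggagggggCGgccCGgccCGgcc
Lipa: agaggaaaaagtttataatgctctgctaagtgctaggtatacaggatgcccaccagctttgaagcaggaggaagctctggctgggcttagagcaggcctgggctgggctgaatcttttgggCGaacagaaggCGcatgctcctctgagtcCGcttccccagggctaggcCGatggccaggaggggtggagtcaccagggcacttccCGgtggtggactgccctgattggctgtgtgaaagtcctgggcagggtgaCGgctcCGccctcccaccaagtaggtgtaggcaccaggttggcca

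By the same limits, the 6 highest fitted fold changes against early embryos were in Pimreg and in 5 genes with no reads in either early library, for which the fitted value depends on the prior count and the order is not shown. Stra8, which starts meiosis, was at 26.1 and 9.94 FPKM with TSA and at 0 in both early libraries, at least 184-fold higher against a floor of 3 counts over the group. Tex101, a testis surface protein, was at 12 and 11.9 FPKM, at least 121-fold higher, and Dapl1 at 12.1 and 16.5, at least 68.2-fold higher. Fthl17c, an X-linked ferritin-like gene, was at 17.6 and 16.6 FPKM and at least 134-fold higher, and Ott, an X-linked testis gene, at 13.8 and 11.7 FPKM and at least 268-fold higher. Tex101 (2.13 and 2.93 FPKM) and Fthl17c (0.65 and 3.35) were also present in late DMSO embryos. Ott and Fthl17c have near-identical copies, and the reads of Ott in particular could not be assigned with certainty. All 6 genes were above both stages.

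Regulators of later development were counted beside the background of 17.4% of genes tested that were higher, 25.1% of genes at 1 FPKM that were higher, and 8.17% of genes above both stages. Of 76 homeobox genes outside the Hox and Obox clusters, 55 reached 1 FPKM in either group, 39 were higher than in early embryos with TSA, 4 were lower, 5 within 2-fold and 35 above both stages. Of 39 Hox genes, which pattern the body axis, 23 reached 1 FPKM, 15 were higher, 1 was within 2-fold and 12 were above both stages. Because most members reach 1 FPKM only with TSA, a member that passed had to differ, and the counts describe the lists without testing them. Hoxa9 rose to 17.6 and 20.9 FPKM from 0.48 and 0.76, and Hoxc10 to 6.29 and 6.08 from 0.05 and 0.24. Hoxa7 was already at 31.1 and 32.4 FPKM in early embryos and stayed within 2-fold, at 27 and 24. Pou5f1, the pluripotency factor Oct4, was at 186 and 179 FPKM with TSA, 234 and 245 early and 136 and 139.6 late.

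Gata2, a blood and trophectoderm regulator, was the most abundant regulator among these lists that was above both stages, at 109.7 and 111 FPKM with TSA, 5.26 and 4.88 early and 3.05 and 3.35 late (log2 3.98 ± 0.10 against early embryos, SE, n = 2, edgeR adjusted p = 1.3e-07). Gata3 rose less, to 6.91 and 7.26 FPKM from 2.45 and 1.98. Gata4, an endoderm and heart factor, went the other way, to 12.3 and 11.5 FPKM from 19.7 and 19.2, and was below both stages, since late DMSO embryos had 57.8 and 49.9. Of 6 Gata genes 5 reached 1 FPKM, and 3 were higher and 1 lower, beside 25.1% and 13.6% of all genes at 1 FPKM. With total-count scaling Gata4 was not called lower.

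Of 44 forkhead genes 28 reached 1 FPKM, and 11 were higher and 1 lower, beside 25.1% and 13.6% of all genes at 1 FPKM. In this list and those that follow, members that reach 1 FPKM only with TSA had to differ, so nothing is read from the counts. Foxc2, a mesoderm factor, was at 12.8 and 13.2 FPKM against 0.11 and 0.14, and Foxj3, the most abundant, at 662 and 588 against 767 and 808. Of 45 Sox, Tbx and Pax genes 31 reached 1 FPKM, and 14 were higher and 2 lower. Sox8 was at 46.3 and 53.4 FPKM against 5.79 and 6.27, and Tbx4 was lower at 26.6 and 23.1 against 48.9 and 52.9. Of 42 proneural and myogenic bHLH genes 22 reached 1 FPKM, and 14 were higher and 1 lower. Id2, an inhibitor of bHLH factors, rose to 51.4 and 50.1 FPKM from 13.5 and 10.7, although late DMSO embryos had 5.42 and 4.26, and Olig2, an oligodendrocyte and motor neuron factor, to 8.14 and 6.95 from 0.18 and 0.12. Of 68 Wnt, Bmp and Fgf ligand genes 31 reached 1 FPKM, and 20 were higher and 4 lower. The lower ones included the oocyte ligand Bmp15, which fell to 196 and 196 FPKM from 539.6 and 514.

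Lists of genes of differentiated cells were counted beside the same shares, 17.4% of genes tested and 25.1% of genes at 1 FPKM higher. Because members that reach 1 FPKM only with TSA had to differ, nothing is read from their counts. Of 219 ion channel genes, 185 were tested and 83 reached 1 FPKM, and 43 were higher than in early embryos and 7 lower. The potassium channel Kcnk5 was at 41.3 and 36.5 FPKM against 6.13 and 7.33 early and 11.8 and 11.7 late. Of 61 synaptic and neuronal genes 55 were tested and 39 reached 1 FPKM, and 16 were higher and 4 lower. Nefm, a neurofilament, rose to 21.1 and 19.5 FPKM from 0.68 and 1.48, whereas Uchl1, a neuronal and oocyte deubiquitinase, fell to 147 and 136 from 438 and 533, and Tubb3, a neuronal and oocyte tubulin, to 23.2 and 18.6 from 89.9 and 87.2. Of 53 keratins 32 were tested and 13 reached 1 FPKM, and 6 were higher and 2 lower. Krt18 (24.4 and 21.1 FPKM against 2.44 and 5.77) and its partner Krt8 (14.8 and 15.4 against 2.03 and 2.95), the keratins of simple epithelia, were above both stages. Of 16 S100 calcium-binding genes 8 were tested and 5 reached 1 FPKM. Higher were 2, S100a6 (12.9 and 12.2 FPKM against 0.69 and 1.01) and S100a13 (6.9 and 8.9 against 0.99 and 0.35).

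**Figure D4:**
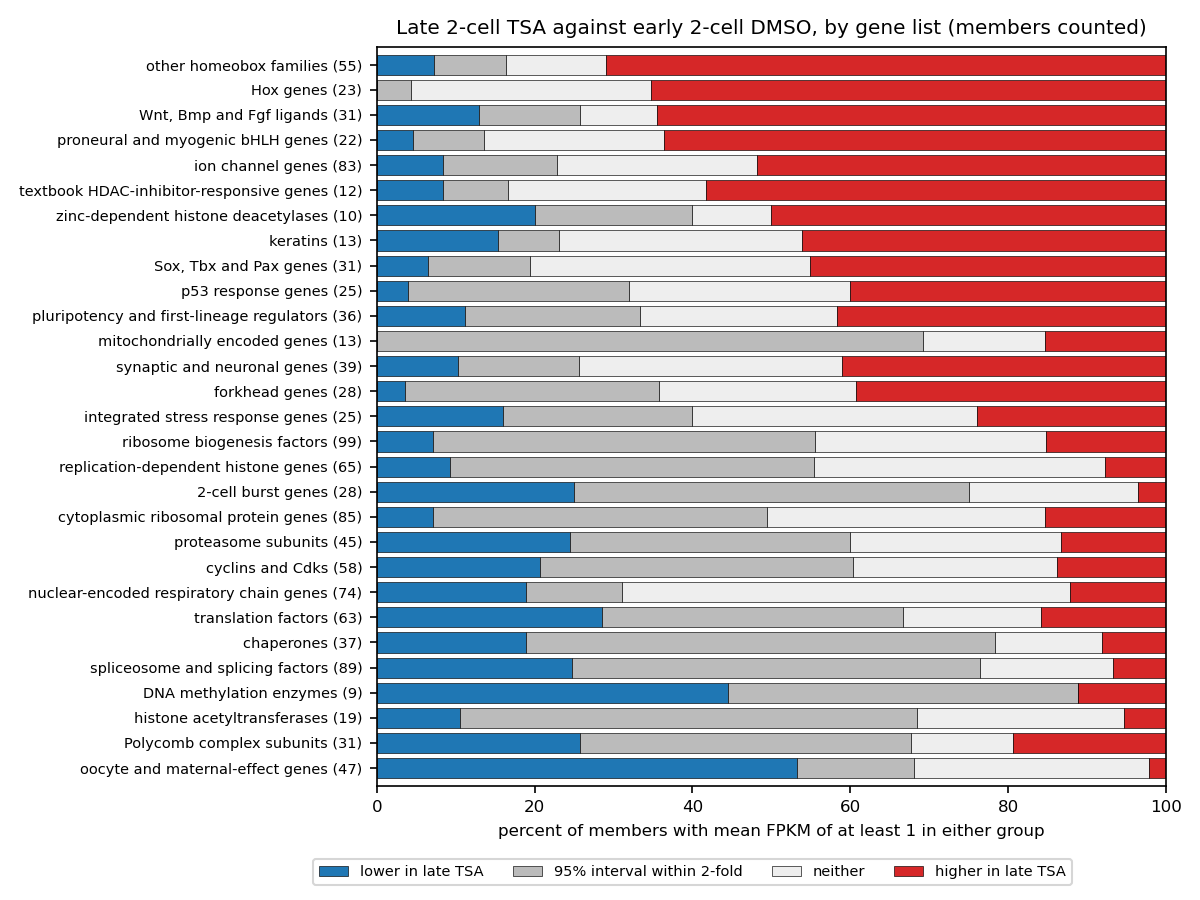
Percent of the members of each gene list that were lower (blue), within 2-fold (grey), neither (white) or higher (red) in late 2-cell TSA than in early 2-cell DMSO embryos, among members that averaged 1 FPKM or more in TSA or early embryos (number in brackets), ordered by median log2 fold change. Homeobox genes with 39 of 55 members higher lie at the top and oocyte genes with 25 of 47 lower at the bottom; members that pass 1 FPKM only with TSA had to differ.

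In 415 genes the TSA embryos lay below both stages, 377 of them protein-coding. Their median level was 9.69 FPKM with TSA, 22 in early and 30.1 in late DMSO embryos, at median log2 fold changes of -1.38 and -1.72, so these were expressed genes with moderate falls. They numbered 171 with total-count and 865 with mitochondrial scaling. Hist2h2ab, a replication-dependent histone gene, was at 2.81 and 4.29 FPKM against 19.3 and 16.1 early and 55.2 and 35.5 late. Cxcl16, a chemokine, was at 1.02 and 0.42 FPKM against 2.74 and 1.57 early and 10.7 and 9.77 late. Cphx1, a preimplantation homeobox gene, was at 17.9 and 3.74 FPKM, against 34.7 and 77.2 early and 165 and 152 late, with a wide spread between libraries. Pagr1a, a subunit of the MLL3/MLL4 methyltransferase complexes, was at 0.46 and 0 FPKM against 4.16 and 5.32 early and 11.2 and 10.4 late, and its count ratio of early to TSA embryos was 96.4 (95% counting interval 32.6 to 471). Cphx1 and Pagr1a have near-identical copies and their counts are uncertain.

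Enzymes that set acetylation were counted by class, and differences between the classes were not tested. For these and the lists that follow, all genes at 1 FPKM gave 25.1% higher, 13.6% lower and 25% within 2-fold. Of 11 zinc-dependent HDAC genes 10 reached 1 FPKM. With TSA 5 were higher than in early embryos (Hdac3, Hdac5, Hdac6, Hdac7 and Hdac11), 2 were lower (Hdac8 and Hdac9) and 2 within 2-fold (Hdac1 and Hdac2). Hdac2, one of the most abundant class I enzymes, was at 78.3 and 73.8 FPKM with TSA, 55.5 and 49.2 early and 38.9 and 35.3 late, with a log2 fold change of 0.01 (95% interval -0.22 to 0.24) against early embryos. Hdac1, its partner in the same complexes, was between the stages, at 61 and 74 FPKM, against 33.3 and 28.1 early and 88.8 and 109 late. Hdac11 rose to 6.02 and 5.63 FPKM from 0.17 and 0.63, and Hdac3 to 5.23 and 4.16 from 1.01 and 1.23, and both were above both stages. Both lower calls sat at the 2-fold limit (log2 -1.02 each) and were lost with total-count scaling (-0.66 for Hdac8 and -0.65 for Hdac9), without TSA replicate 1 (-0.76 and -0.94) and without early replicate 1 (-0.71 and -0.96). Hdac1 was called higher with total-count scaling (log2 1.05, adjusted p = 0.00016), which gave 6 higher HDAC genes. Hdac5 was not called without TSA replicate 2 (adjusted p = 0.066) nor Hdac7 without TSA replicate 1 (adjusted p = 0.072). Of 7 sirtuins 1, Sirt5, was called, and it was lower (0.76 and 1.01 FPKM against 2.03 and 2.73), but not without either TSA replicate (adjusted p = 0.15 without replicate 1 and 0.081 without replicate 2). Sirt1, the main nuclear sirtuin, was within 2-fold of early embryos, at 27.8 and 28.9 FPKM against 34.1 and 33.6 early and 149.7 and 168 late (log2 -0.74, 95% interval -0.94 to -0.53, against early embryos), but with mitochondrial scaling it was called lower (edgeR adjusted p = 3.7e-05). Of 19 acetyltransferase genes, 11 lay within 2-fold, among them Crebbp, at 318 and 336 FPKM against 298 and 315. Hat1, which acetylates new histones, was higher (15.8 and 17.5 against 5.75 and 6.14), and Kat7 and Kat8 were lower and below both stages, although Kat8 was not lower than early embryos without TSA replicate 2 (adjusted p = 0.17) or early replicate 2 (0.058).

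Textbook HDAC-inhibitor-responsive genes gave 7 higher, 1 lower and 1 within 2-fold of 12, beside 25.1%, 13.6% and 25% of all genes at 1 FPKM. Cdkn1c, the imprinted cell cycle inhibitor p57, on the minus strand at chr7:143458339-143461050 of GRCm38, was at 148 and 152 FPKM with TSA, 5 and 5.99 in early and 9.1 and 6.43 in late DMSO embryos (log2 3.96 ± 0.12 against early embryos, SE, n = 2, edgeR adjusted p = 2.4e-07). Cdkn1a, the inhibitor p21, was at 39 and 34.1 FPKM against 4.5 and 4.82 early and 8.72 and 10.2 late. Both were above both stages, as was Gsn, gelsolin, which cuts actin filaments (4.14 and 4.64 FPKM against 0.15 and 0 early). The metallothionein Mt2, which binds metal ions, lay within 2-fold of early embryos, at 79.8 and 70.1 FPKM with TSA, 63.1 and 49.1 early and 234 and 214 late. Mt1 was not within that limit but had the same order, at 131 and 114, 74.5 and 54.2, and 309 and 340.3 FPKM. H1f0, a linker histone of resting cells on the same list, was at 47.4 and 48.5 FPKM against 63.4 and 68.3 early.

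Of 25 p53 response genes at 1 FPKM (30 in the list) 10 were higher than in early embryos with TSA and 1 lower, beside 25.1% and 13.6% of all genes at 1 FPKM. Bbc3, the death factor Puma, rose to 5.77 and 4.87 FPKM from 0.26 and 0.25, and Epha2, an ephrin receptor, to 9.48 and 7.69 from 0.35 and 0.12, whereas Mdm2, the ligase of p53, stayed within 2-fold at 71.5 and 83.2 against 113 and 100.0. Of 25 genes of the integrated stress response at 1 FPKM (27 in the list) 6 were higher, 4 lower and 6 within 2-fold, shares close to those of all genes at 1 FPKM. The split was 10 higher and 1 lower with total counts and 5 and 7 with mitochondrial scaling. Its central factor Atf4 was at the early level, at 83.2 and 88.7 FPKM with TSA, 72.2 and 60.2 early and 171 and 173 late (log2 0.03, 95% interval -0.23 to 0.28), and Ppp1r15a likewise at 93.3 and 76.5, 95.3 and 75.1, and 241 and 232. Atf3, another bZIP factor of stress, was above both stages, at 38.1 and 38.1 FPKM against 1.44 and 2.74 early.

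Of 36 pluripotency and first-lineage regulators at 1 FPKM (39 in the list) 15 were higher, 4 lower and 8 within 2-fold. Zfp42, the pluripotency marker Rex1, had risen to 24.6 and 20.6 FPKM from 1.65 and 2.89, within 2-fold of late DMSO embryos (13 and 14.2). Klf17, a factor of the early embryo, was below both stages, at 75.8 and 62.5 FPKM against 145 and 167 early and 149 and 153 late. Hand1, a trophoblast factor, was at 5.24 and 4.18 FPKM against 0.12 and 0.57.

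Of 9 DNA methylation genes 4 were lower and 1 higher. Tet3, the dioxygenase of the zygote, fell to 60.9 and 60.2 FPKM from 179.6 and 197, close to the late DMSO level of 51.2 and 55.7, and Uhrf1, the cofactor of maintenance methylation, to 33.7 and 31.2 from 78.8 and 89. Of 31 Polycomb genes at 1 FPKM (32 in the list) 6 were higher, 8 lower and 13 within 2-fold. Total-count scaling gave 7 higher and 3 lower, and mitochondrial scaling 5 and 9. Ezh2, the methyltransferase of H3K27, fell to 194 and 166 FPKM from 471 and 468, and Bmi1 stayed within 2-fold at 2316 and 2339 against 2249 and 2292. Cbx8, a chromobox gene, rose to 7.47 and 9.58 FPKM from 0.83 and 1.26.

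Of 58 cyclin and Cdk-related genes at 1 FPKM (60 in the list) 8 were higher, 12 lower and 23 within 2-fold. With total counts the split was 13 higher and 5 lower, and with mitochondrial scaling 8 and 19. Ccnb1, the mitotic cyclin B1, was at 102 and 93.2 FPKM with TSA, 411 and 429 early and 271 and 279 late, below both stages (log2 -2.61 ± 0.07 against early embryos, SE, n = 2, edgeR adjusted p = 1.6e-07). Ccnd2, a cyclin of the G1 phase, was at 4.26 and 4.76 FPKM against 0.04 and 0.1 early and 0.08 and 0.01 late. Of 65 replication-dependent histone genes at 1 FPKM (67 in the list) 5 were higher, 6 lower and 30 within 2-fold. Reads of these close copies can be divided between members. The split was 11 higher and 3 lower with total counts and 2 and 7 with mitochondrial scaling. Of the 13 mitochondrially encoded genes 2 were higher and 9 within 2-fold.

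Markers of other cell types were checked because the oocytes were fertilized inside their cumulus, with sperm added. Of 10 cumulus cell markers 1 was higher (Amhr2, 2.5 and 2.07 FPKM against 0.33 and 0.23 early, and 11 and 12.7 in late DMSO embryos) and 1 lower (Cyp19a1), neither of them without TSA replicate 1 (adjusted p = 0.073 and 0.11) or TSA replicate 2 (0.075 and 0.15), and their summed level was 5.5 and 5.05 FPKM with TSA and 3.3 and 3.43 in early embryos. All 10 had some signal in a TSA library. Over all genes tested 17.4% were higher and 9.37% lower, and over genes at 1 FPKM 25.1% and 13.6%. Fibroblast markers rose in 6 of 10, from a summed 1.31 and 2.5 FPKM to 22.6 and 19.5, with 2.32 and 3.24 in late DMSO embryos. In the early libraries 0 and 1 of them reached 1 FPKM, against 6 and 5 with TSA. Markers that reach 1 FPKM only with TSA had to differ, so nothing is read from the marker counts. The 6 included the collagen gene Col1a1 (2.63 and 1.74 FPKM against 0.06 and 0.53) and the receptor Pdgfra (5.43 and 3.63 against 0.09 and 0.5), while Dcn and Lum, which encode matrix proteoglycans, were listed at 0 in both TSA libraries and Col3a1 at 0 and 0.02 FPKM. Erythroid markers rose in 2 of 9, from 4.8 and 2.52 to 45.6 and 48 FPKM summed, of which Hba-a2, an α-globin gene, made 35.4 and 39.8. The adult β-globin genes Hbb-bs and Hbb-bt were listed at 0 in both TSA libraries. Hba-a2 and Hba-a1 are near-identical copies. Sperm markers gave 0 calls by edgeR and by DESeq2 among 10 (1 lower at an unadjusted p under 0.05), with Prm1, Smcp and Gapdhs at 0 in both TSA libraries, and summed to 7.21 and 5.85 FPKM with TSA and 6.6 and 8.0 early, and leukocyte markers gave 0 calls by edgeR and by DESeq2 among 10 (2 higher at an unadjusted p under 0.05), with Fcer1g and Tyrobp at 0, at 9.65 and 9.43 against 3.37 and 5.87. All 6 higher fibroblast markers and 1 erythroid marker are themselves among the genes above both stages, and markers of the other types are not. Whether cells of these types had a part in the results was not tested.

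Open chromatin in DMSO embryos of the other experiment, which none of the gene classes used, was set beside them. The study's peak lists over both replicates held 27693 peaks in early 2-cell and 10214 in late 1-cell embryos, and a gene was counted when a peak lay within 1 kb of one of its start sites. An early 2-cell peak was near 33.8% of the 23001 genes tested and 42.8% of those at 1 FPKM. The share was 59.9% for genes within 2-fold of early embryos, 35.2% for higher and 43.7% for lower genes. It was 67.2% for genes below both stages and 25% for genes above both. Of the 378 late-activated genes at the early level 75.4% had such a peak, beside 54.2% of all late-activated genes at 1 FPKM and 55.7% of those higher with TSA. Levels differ between these classes: of genes under 1 FPKM in early embryos 16.6% had a peak, and of higher genes under 1 FPKM 22.5%. Of genes at 1 FPKM or more in early embryos 48.7% had a peak, and of higher genes at that level 51.7%. The classes were not matched for level, and the rule for within 2-fold needs a narrow interval. At the late 1-cell stage the share was 30.2% for genes above both stages, 27.5% for all genes tested and 34.8% for those at 1 FPKM. Of genes under 1 FPKM in early embryos 14.7% had a late 1-cell peak. At both stages, whether genes above both stages stood over or under the background thus depended on the background used.

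**Figure D5:**
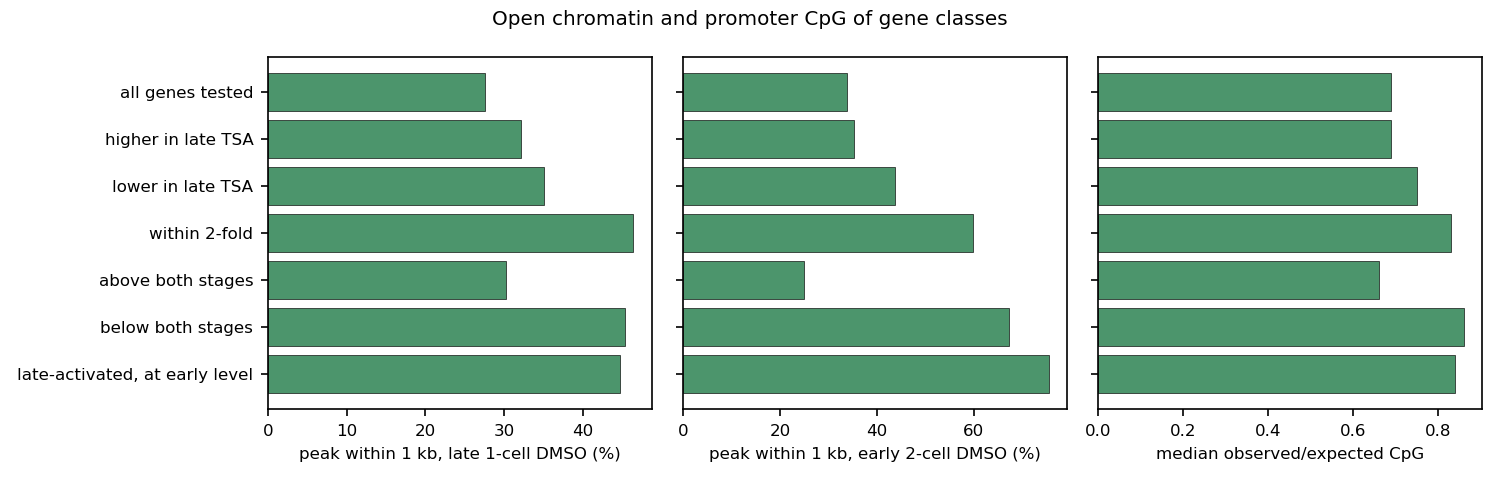
Percent of genes in each class with an ATAC-seq peak of DMSO embryos within 1 kb of a start site, at late 1-cell (left) and early 2-cell (middle), and the median ratio of observed to expected CpG in the 300-base promoter window (right). Late-activated genes at the early level have the largest early 2-cell share, 75.4%, and genes above both stages the smallest, 25%.

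Of the promoters printed above, those of Set, Rpl41 and Lipa had an early 2-cell peak nearby and that of Kcnj10 had none, and at the late 1-cell stage Rpl41 and Lipa had one. The observed to expected CpG ratio was 0.55 in Set, 0.88 in Rpl41, 0.75 in Kcnj10 and 0.27 in Lipa. Over the classes its median was 0.84 for late-activated genes at the early level, 0.86 below both stages, 0.66 above both, 0.75 over genes at 1 FPKM and 0.69 over all genes tested with a RefSeq promoter. The GC box GGGCGG, searched on both strands, was present in 74.2% of the promoters of late-activated genes at the early level, 67.9% of those above both stages, 71.1% within 2-fold, 62.6% of late-activated genes, 62.5% of genes at 1 FPKM, 56.2% of genes tested and 35.9% of the 27025 promoters of the RefSeq table. All 4 printed promoters held it.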

How the data were processed

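Stranded total RNA libraries (SMART-Seq Stranded Kit) were read from 10 libraries, 2 in each of 5 groups set by the labels. Per the submitters' processing notes the tools were Trimmomatic 0.39, STAR 2.7.8a, RSEM 1.3.1 and DESeq2 1.32.0, with the builds GRCm38 and mm10 listed. The authors deposited RSEM expected counts and FPKM for each gene, and how widely RSEM's posterior count spread (its SD), used here only to mark genes with near-identical copies. They also deposited ATAC-seq peak lists, 1 per stage over both replicates, with a fold enrichment (ratio to background) for each peak, of which the positions were used. Gene names and positions came from GENCODE M21.

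Expected counts were rounded, genes with fewer than 10 counts summed over the libraries of a fit were removed, and edgeR 4.0.16 (R 4.3.3) was fitted with TMM scaling and quasi-likelihood F-tests over all genes, with Benjamini-Hochberg adjustment. Summaries used Python 3.11.15 and pandas 2.3.3. Genes above or below both stages took the larger p of both contrasts in a fit of 3 groups. Totals were 18722215 to 26531532 expected counts in the 3 groups compared. On simulated data 200 genes of TSA against early embryos were changed 4-fold, as many up as down, at a single spread and without the FPKM minimum. Of these 160 were called (80%), with 5 false among 165 calls over 23066 genes. The data hold many more changes and an uneven split, so these rates do not describe the reported calls. Alternatives were DESeq2 1.42.0, scaling to total counts or to mitochondrial protein genes, no count filter, no FPKM minimum, all 10 libraries, the replicate block, protein-coding genes alone and leaving out each library. Named genes were, at 10 FPKM or more, the 6 highest and 6 lowest, the 6 furthest above and 4 furthest below both stages, the most abundant 5 late-activated and 5 maternal-cleared genes at the early level and 4 late-activated genes at the late level, and from each list its 3 most abundant and 3 most changed members, with all HDAC and textbook inhibitor-responsive genes. Only some of these are described, and the marker genes given as listed at 0 were named after their values were seen. Members, lists and rules were chosen with earlier results of these data known. A-485 libraries and H3K27ac files were not used here.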

Additional observations from a re-analysis of the deposited data

How the results depend on the processing

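The counts of genes higher in TSA than in early embryos (2924 to 4293) and lower (1739 to 2279) kept within 1.5 times of the reported ones when each library was left out, as did those within 2-fold (3077 to 3777), late-activated within 2-fold (414 to 568), above both stages (1372 to 2050) and below both (346 to 459). Maternal-cleared genes within 2-fold of early embryos numbered 127 to 206, the fewest without TSA replicate 1. Scaling moved the falls most: lower genes numbered 1071 with total counts and 3416 with mitochondrial scaling, genes below both stages 171 and 865, and maternal-cleared genes within 2-fold 333 with total counts. The 273 genes between the late DMSO groups became 445 with the replicate block and 45 over protein-coding genes alone, where fewer genes are counted; both of these alternatives were chosen after seeing the data. Replicate numbers are shared between groups but nothing in the labels pairs them, and deviations of same-numbered libraries correlated at r = 0.03 across 11745 genes; the block gave 3898 higher and 2125 lower genes. Of the 125 genes named against early embryos, no called gene changed sign under the alternatives and no uncalled gene was called against its sign. Sign changes of genes that stayed uncalled were not counted. Calls were lost for 9 with total-count scaling, among them Npm1 (-0.85), Eif4e1b (-0.86) and Gata4 (-0.73). With mitochondrial scaling 3 were lost, among them Hat1 (0.92). With 2 libraries a group, 5782 genes at 1 FPKM were left undecided, abundant ones with intervals across the 2-fold limit among them.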
